A study of Mus musculus with 6 samples.

Results

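The major urinary protein (Mup) genes of the mouse were followed one by one in liver RNA-Seq of control and gSpns1-cKO mice. The 10 genes described here are Mup1, Mup2, Mup3, Mup7, Mup11, Mup12, Mup15, Mup18, Mup20 and Mup21, taken by name from the 54532 genes of the deposited count table. They were chosen with their counts in this comparison already known, so their difference between the groups is given as a description, without a p-value. All 10 were listed once, had counts in every control library and passed the filter on low counts. In gSpns1-cKO mice, Spns1, a lysosomal lysolipid transporter, was deleted in the whole body by a Rosa26-driven, tamoxifen-inducible Cre (Cre-ERT2), induced by injection before weaning. The control mice were floxed littermates according to the study's methods and are labelled as wild type. Whether they received tamoxifen, and the age at which livers were taken, are not given in the sources used here. There were 3 livers in each group, with 1 library per liver, and total counts were between 30350002 and 35295611 per library.

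Major urinary proteins are small secreted lipocalins, barrel-shaped carriers of hydrophobic molecules. They are made by hepatocytes, pass into the urine and hold the volatile odorants that mice use for scent marking. Male liver makes far more of them than female liver, and their genes depend on the pulsed growth hormone secretion of males, which acts through the transcription factor STAT5B. The genes lie in one cluster in which a central group of nearly identical copies is flanked by older, more diverged genes, among them Mup20, which encodes the male pheromone darcin, and Mup3 and Mup21.

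The sequences show which of these genes can be told apart by reads. Below is the same stretch of 120 coding bases, read from the GENCODE M21 transcripts in which it starts at base 61 of the Mup7 coding sequence, and written 5′ to 3′. Capitals mark the bases that differ from Mup7 at the aligned position.
Mup7: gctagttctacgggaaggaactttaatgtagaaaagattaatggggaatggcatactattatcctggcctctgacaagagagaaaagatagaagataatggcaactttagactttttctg
Mup12: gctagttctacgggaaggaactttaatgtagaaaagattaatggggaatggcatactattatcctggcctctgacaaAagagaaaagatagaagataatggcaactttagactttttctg
Mup11: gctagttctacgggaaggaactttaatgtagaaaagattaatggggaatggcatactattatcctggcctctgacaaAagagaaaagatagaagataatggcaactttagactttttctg
Mup20: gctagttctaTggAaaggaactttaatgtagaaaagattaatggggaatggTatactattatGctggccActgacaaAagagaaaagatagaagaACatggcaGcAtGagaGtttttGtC
Mup3: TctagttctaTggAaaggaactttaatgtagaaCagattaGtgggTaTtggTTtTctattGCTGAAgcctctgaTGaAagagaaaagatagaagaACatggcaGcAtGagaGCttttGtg
Mup21: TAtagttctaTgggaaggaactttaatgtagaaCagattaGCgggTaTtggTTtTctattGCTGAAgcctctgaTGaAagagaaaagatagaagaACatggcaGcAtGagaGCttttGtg
Mup12 and Mup11 each differed from Mup7 at 1 of the 120 bases, and at the same base. The other near-identical genes differed from Mup7 at 1 base in Mup1 and Mup18 and at 2 bases in Mup2 and Mup15. Mup20 differed at 14 bases, Mup3 at 27 and Mup21 at 28. Over the whole coding sequence of 540 to 552 bases, the 21 pairs among Mup1, Mup2, Mup7, Mup11, Mup12, Mup15 and Mup18 were 98.3% to 99.8% identical. Mup20 was 90.1% to 91.3% identical to those 7 genes, Mup21 83.6% to 84.9% and Mup3 82.1% to 83.5%. Mup3 and Mup21 were the closest pair of the remaining 3 genes, with 94.7% identity.

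Each annotated transcript was also cut into all of its windows of 100 bases, and each window was looked for in the transcripts of every other gene. In Mup3, 97.8% of 1165 windows were found in no other gene, and in Mup21 95.5% of 578. The windows that these 2 genes did not own were shared with each other only. In Mup20, 61.2% of 829 windows were its own, and the rest were shared with the pseudogene Mup-ps19 and with no Mup gene. In the near-identical genes the share was 44.3% in Mup1, 23.9% in Mup7, 22.5% in Mup12, 21.8% in Mup11, 12.9% in Mup18, 2.66% in Mup15 and 2.30% in Mup2. Each of these 7 genes shared windows with 16 or 17 other genes of the family. How the counting program treated reads that match several genes is not given in the sources used here. The split of counts among these 7 genes is therefore uncertain, and so is their level beside Mup3, Mup20 and Mup21. How far reads moved between genes, or were left uncounted, was not tested. No member overlapped another annotated gene.

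**Figure D1:**
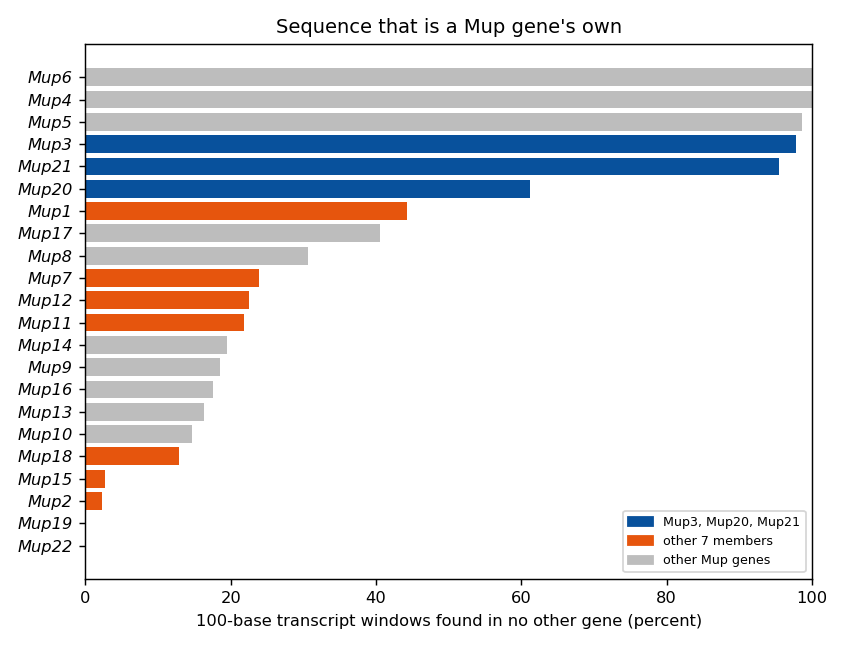
The bars give, for each Mup gene, the percent of its 100-base transcript windows that occur in no other annotated gene, with Mup3, Mup20 and Mup21 in blue, the other 7 members in orange and the remaining Mup genes in grey. Mup3 and Mup21 stood at 97.8% and 95.5% and Mup20 at 61.2%, whereas the orange bars ran from 2.30% to 44.3%.

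Promoters are shown from RefSeq (GRCm38.p6) for Mup3 and Mup21, which kept counts in every gSpns1-cKO liver, and for Mup11, a near-identical gene at the floor in all of them. Each window of 300 bases begins upstream of the annotated start and ends just past it, on the minus strand, 5′ to 3′, with the letters TATATAA in capitals.
Mup3, chr4:62087268-62087567: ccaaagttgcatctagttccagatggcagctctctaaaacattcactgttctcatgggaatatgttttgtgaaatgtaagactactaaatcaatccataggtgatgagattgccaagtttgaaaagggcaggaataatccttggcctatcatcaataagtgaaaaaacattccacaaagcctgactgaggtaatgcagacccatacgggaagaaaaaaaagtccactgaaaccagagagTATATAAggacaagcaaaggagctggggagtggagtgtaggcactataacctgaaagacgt
Mup21, chr4:62150792-62151091: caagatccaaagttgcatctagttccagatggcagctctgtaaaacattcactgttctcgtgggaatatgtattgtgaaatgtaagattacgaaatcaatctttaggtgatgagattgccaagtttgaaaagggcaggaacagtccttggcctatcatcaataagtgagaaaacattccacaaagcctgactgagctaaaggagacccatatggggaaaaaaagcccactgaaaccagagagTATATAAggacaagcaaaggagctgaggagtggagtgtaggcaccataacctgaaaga
Mup11, chr4:60662346-60662645: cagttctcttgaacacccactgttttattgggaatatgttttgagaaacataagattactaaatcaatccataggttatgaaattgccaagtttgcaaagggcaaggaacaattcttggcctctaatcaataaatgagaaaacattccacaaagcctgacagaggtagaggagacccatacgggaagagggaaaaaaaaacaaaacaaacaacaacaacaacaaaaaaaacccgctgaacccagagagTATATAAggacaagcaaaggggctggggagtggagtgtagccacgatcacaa
Promoter sequences were found for 7 of the 10 members. Mup3 and Mup21 were 90.2% identical over these windows, Mup11 and Mup3 68.7%, and Mup11 and Mup21 66.3%. TATATAA on the gene strand occurred in 6 of the 7, all except Mup7, and in 2.20% of 32851 mouse promoters of the same length. The Mup7 window was only 39.6% to 49.3% identical to the other 6. Those of Mup2, Mup11, Mup15 and Mup18 were 81.0% to 94.2% identical to each other. The lack of the motif therefore holds for the annotated Mup7 window only. TTCNNNGAA, the core that STAT factors recognise, occurred on either strand in 0 of the 7 and in 8.30% of all promoters. A match is a description of these windows only.

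Spns1, the targeted gene, had 1008, 1562 and 875 counts in the control libraries and 642, 1175 and 698 in the gSpns1-cKO libraries. Its level was lower by 0.87 on the log2 scale (log2 fold change -0.87, SE 0.25, adjusted p = 0.0300 in the edgeR quasi-likelihood test (Benjamini-Hochberg adjusted) over 15449 genes), a call that was lost when control replicate 2, gSpns1-cKO replicate 1 or gSpns1-cKO replicate 3 was left out (highest adjusted p = 0.0910), and with library size or upper-quartile scaling. These counts cover the whole gene, including the part outside the deleted exon. All 6 libraries carried Y-linked transcripts, with 1731 to 2568 counts of Ddx3y and 324 to 543 of Uty, beside Eif2s3y and Kdm5d, and at most 5 counts of Xist. Kdm5d, with 332 to 415 counts in control and 622 to 743 in gSpns1-cKO livers, was higher (log2 fold change 0.47, adjusted p = 0.0149 in the same test), a call lost without control replicate 2 or gSpns1-cKO replicate 3 (highest adjusted p = 0.0630). One library stood apart in the Mup genes, gSpns1-cKO replicate 1, and its values are given separately throughout. Across all 15449 genes tested, 3166 (20.5%) were lower and 3286 (21.3%) higher, or 41.8% in either direction, in gSpns1-cKO livers, and 26.9% had every gSpns1-cKO library below every control library.

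Mup3 was the Mup gene with the most counts in each control library. It had 261587, 287372 and 207933 counts in the controls and 6528, 405 and 992 in the gSpns1-cKO livers. The control libraries lay close together, and all 3 gSpns1-cKO libraries were far below them, with replicate 1 the highest of the 3. In CPM, which are counts divided by the TMM-scaled size of each library, Mup3 was 8951 ± 636 (SD, n = 3) in control and 72.4 ± 94.7 (SD, n = 3) in gSpns1-cKO livers. Of the control mean, 2.03% was left in gSpns1-cKO replicate 1, 0.118% in replicate 2 and 0.282% in replicate 3. The fitted log2 fold change was -6.95 (SE 1.47), and -8.97 without gSpns1-cKO replicate 1. Mup3 (ENSMUSG00000066154) spans chr4:62083476-62087342 on the minus strand of mm10.

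Mup20, the darcin gene (ENSMUSG00000078672, chr4:62050234-62054158, minus strand), had the highest count of the 10 genes in any single gSpns1-cKO library. It had 90458, 128372 and 100706 counts in the controls and 21051, 544 and 499 in gSpns1-cKO livers. Replicate 1 of the gSpns1-cKO group thus lay nearer to the controls than to the other two gSpns1-cKO libraries on a log scale. It retained 15.4% of the control mean CPM, against 0.374% and 0.335% in replicates 2 and 3, and was 43.6 times the mean of those 2 libraries. The level was 3789 ± 504 CPM (SD, n = 3) in control and 204 ± 330 CPM (SD, n = 3) in gSpns1-cKO livers. The log2 fold change of -4.22 (SE 1.93) was -8.14 without replicate 1. Mup20 was the member that did not pass the threshold of the test over all genes.

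Mup21 (ENSMUSG00000066153, chr4:62147932-62150863, minus strand) differed less between the gSpns1-cKO libraries than Mup3 and Mup20 did. Its counts were 10071, 5199 and 5923 in control and 542, 289 and 218 in gSpns1-cKO livers. The percent of the control mean CPM left was 5.94 in replicate 1, 2.97 in replicate 2 and 2.19 in replicate 3. Replicate 1 was again the highest, here 2.30 times the mean of the other two, compared with 10.1 times for Mup3. The log2 fold change was -4.76 (SE 0.54), and -5.28 without replicate 1. In replicates 2 and 3 Mup21 held on to a larger share of its control level than Mup3 or Mup20 did.

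**Figure D2:**
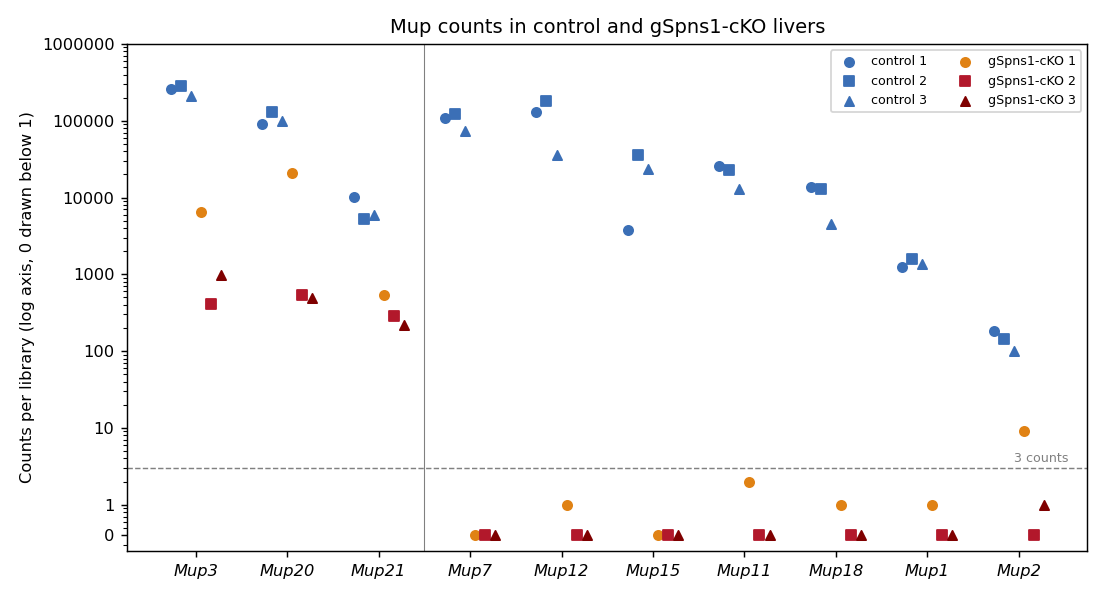
Counts of each Mup gene in each of the 6 libraries are shown on a log axis, with 0 drawn below 1 and the floor of 3 counts as a dashed line; blue points are control and orange to dark red points gSpns1-cKO livers. Left of the vertical line, Mup3, Mup20 and Mup21 kept 218 to 21051 counts in gSpns1-cKO livers, while right of it no gSpns1-cKO point exceeded 9 counts.

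The 7 near-identical genes were at or close to 0 in all gSpns1-cKO livers, replicate 1 included. Mup7 had 108157, 121920 and 73972 counts in the controls and 0 in each gSpns1-cKO liver. Mup12 had 128877, 182626 and 35616 in control and 1, 0 and 0 in gSpns1-cKO livers. Mup15 had 3814, 35439 and 23494 in control and 0 in each gSpns1-cKO liver. The groups were separated by far more than their spread in each of these 3 genes, although the controls themselves differed several-fold in Mup12 and Mup15. Mup11 had 25592, 22829 and 12832 counts in control and 2, 0 and 0 in gSpns1-cKO livers. Mup18 had 13621, 12782 and 4512 in control and 1, 0 and 0 in gSpns1-cKO livers. Mup1 had 1240, 1594 and 1357 in control and 1, 0 and 0 in gSpns1-cKO livers. These 3 genes were likewise at the floor in the gSpns1-cKO group. Mup2 was the lowest in control livers, with 183, 144 and 100 counts, and had 9, 0 and 1 in gSpns1-cKO livers. Those 9 counts were the most that any of the 7 genes had in a gSpns1-cKO library.

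For a gene with at most 3 counts in every gSpns1-cKO library, a fold change is a lower bound, taken against 3 counts in a single library. On that basis Mup12 was at least 47654-fold lower in gSpns1-cKO than in control livers and Mup7 at least 42886-fold. The bound was 8853-fold for Mup15, 8629-fold for Mup11, 4308-fold for Mup18 and 598-fold for Mup1, and these bounds follow the control level. Mup2, which was above the floor in replicate 1, was 54.9-fold lower by the mean CPM, a value that rests on its 9 counts there. Its fitted log2 fold change was -5.77, and -8.24 without replicate 1, when both remaining gSpns1-cKO libraries were under the floor, at most 1.55% of the control mean. With such genes at their bound, the median log2 fold change of the 10 members was -10.65, and over all genes tested it was 0.014. Of the 10 members, 9 were below the threshold of adjusted p in the lower direction, where 20.5% of all genes were, and in 10 of 10 no gSpns1-cKO library reached a control library, where 26.9% of all genes had that order. The members were chosen on this contrast, so these counts describe the choice. In a bulk sample, fewer hepatocytes and less RNA per hepatocyte cannot be told apart from the counts of these genes alone. Hepatocyte markers summed to 106055 to 117953 CPM in control and 62934 to 72374 CPM in gSpns1-cKO livers. Their part in the Mup result was not tested.

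**Figure D3:**
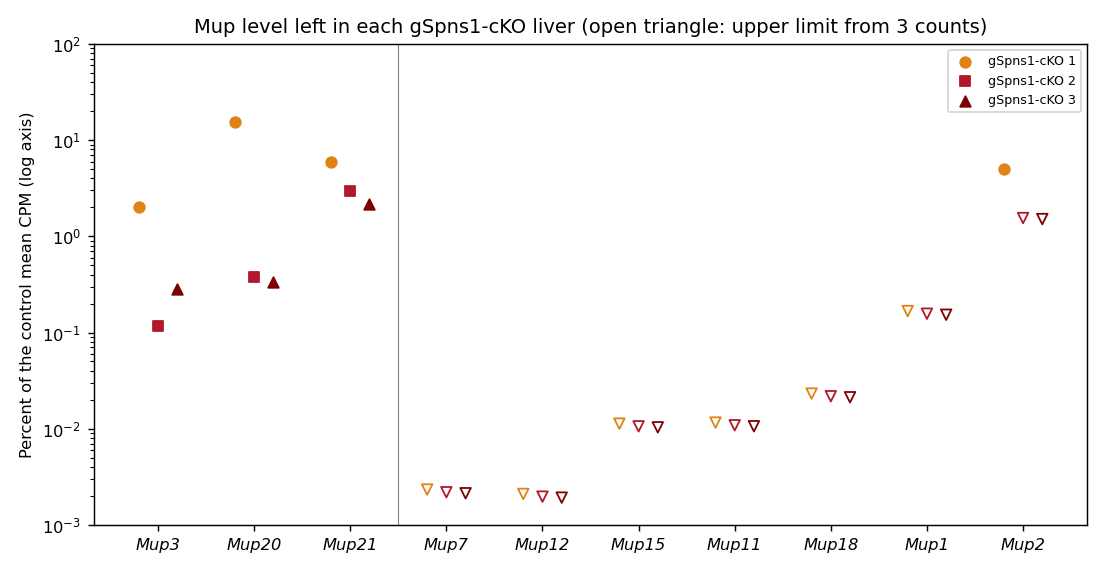
Each point is the level of 1 Mup gene in 1 gSpns1-cKO liver as a percent of the control mean CPM, on a log axis; open triangles are upper limits for genes with at most 3 counts. Mup20 in replicate 1 (15.4%) was the highest point, and the limits for Mup7 and Mup12 were the lowest.

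Summed over members, the near-identical and the distinct genes differed, although single genes overlapped. Mup2 kept 4.96% of its control mean CPM in gSpns1-cKO replicate 1, on 9 counts, against 2.03% for Mup3. By the mean CPM Mup2 was 54.9-fold lower and Mup3 124-fold. The 7 near-identical genes together had 281484, 377334 and 151883 counts in the controls and 14, 0 and 1 in gSpns1-cKO livers. Mup3, Mup20 and Mup21 together had 362116, 420943 and 314562 counts in the controls and 28121, 1238 and 1709 in gSpns1-cKO livers. The sum of the 7 left 0.00413% of its control mean CPM in replicate 1 and at most 0.00083% in the others, whereas the sum of the 3 was 6.02%, 0.248% and 0.335%. All 21 genes named Mup with a number took 2.20%, 2.44% and 1.70% of all counts in the controls. They took 0.0905% (exact binomial 95% interval 0.0895% to 0.0916%), 0.0038% (0.0036% to 0.0040%) and 0.0051% (0.0048% to 0.0053%) in gSpns1-cKO replicates 1, 2 and 3. These intervals cover counting error only.

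The make-up of what remained changed accordingly. Mup3, Mup20 and Mup21 held 50.6%, 48.8% and 61.0% of the counts of the 21 genes in control livers and 99.8%, 99.8% and 99.9% in gSpns1-cKO livers. Mup20 alone held 12.6%, 14.9% and 19.5% in control livers, and 74.7%, 43.9% and 29.2% in gSpns1-cKO replicates 1, 2 and 3. Mup3 held 36.6%, 33.3% and 40.3% in control and 23.2%, 32.7% and 58.0% in gSpns1-cKO livers. Mup21 held 1.41%, 0.603% and 1.15% in control and 1.92%, 23.3% and 12.7% in gSpns1-cKO livers. Each gSpns1-cKO liver thus had its own leading gene or mix, with Mup20 first in replicates 1 and 2 and Mup3 first in replicate 3, while Mup3 led in all 3 controls.

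**Figure D4:**
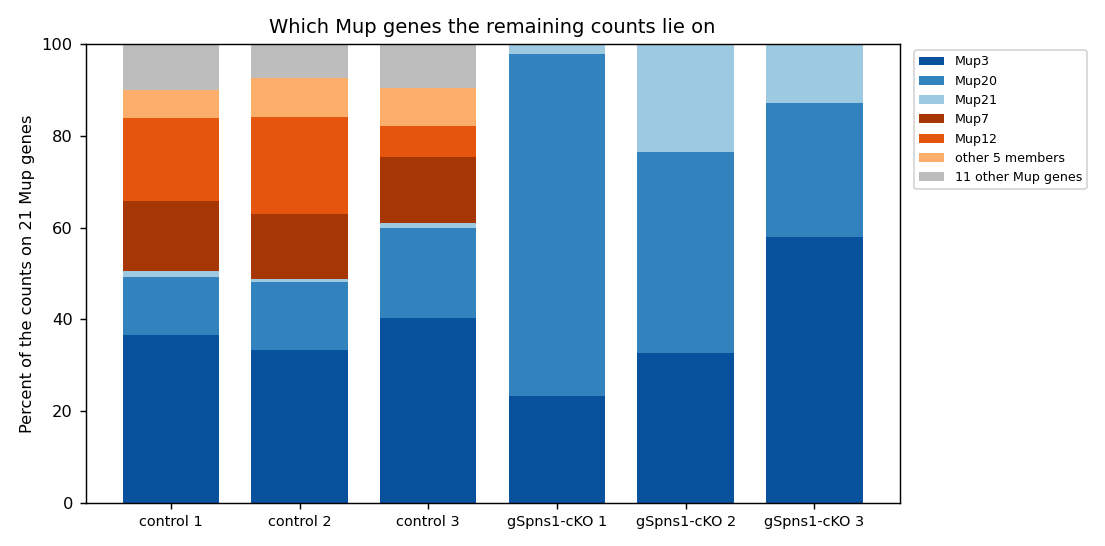
Stacked bars give the percent of the counts on 21 Mup genes that fell on each gene or group of genes in each library; Mup22 and pseudogenes are not included. Blue shades (Mup3, Mup20, Mup21) took 48.8% to 61.0% of the bar in control and 99.8% to 99.9% in gSpns1-cKO livers, where the total behind the bar was 28167, 1240 and 1710 counts.

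Among the controls, the distinct genes varied less in sum than the near-identical ones. The sum of Mup3, Mup20 and Mup21 was 12880, 13670 and 12430 CPM, a coefficient of variation (CV) of 4.83% (n = 3). The sum of the other 7 was 10012, 12254 and 6002 CPM, a CV of 33.6%. Control replicate 3 was the lowest in both sums. Gene by gene the CV in control livers was 7.11% for Mup3, 10.1% for Mup1, 13.3% for Mup20, 15.9% for Mup7, 26.1% for Mup2, 28.1% for Mup11, 37.9% for Mup21, 44.7% for Mup18, 58.4% for Mup12 and 72.3% for Mup15. Mup12 and Mup15, the most variable, had 22.5% and 2.66% of windows of their own, but Mup21, with 95.5%, varied more than Mup1, Mup2, Mup7 and Mup11, so the CV did not follow the share of windows in a single order. Mup15 was 8.48 times as high in the highest as in the lowest control, and Mup12 4.21 times. The low library was control replicate 1 for Mup15 and control replicate 3 for Mup12.

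Per kilobase of the gene length in the deposited table, Mup3 was also the highest of the 10 in control livers, at 7694 to 8738 CPM per kb. The order given here is one of deposited counts. Reads that match several genes may be missing from the near-identical genes, which was not tested. Mup12 (1520 to 6405), Mup20 (3467 to 4492) and Mup7 (2830 to 3833) came next, and their ranges overlapped, so these 3 were not ordered beyond the spread between controls. Mup15 (147 to 1244), Mup11 (322 to 578), Mup18 (192 to 521) and Mup21 (249 to 529) overlapped each other too, one tier lower. Mup1 (27.8 to 33.9) and Mup2 (2.96 to 4.87) stood apart from the others and from each other. In gSpns1-cKO livers the order by the highest library was Mup20 (13.7 to 631 CPM per kb), Mup3 (9.88 to 170) and Mup21 (8.19 to 22.3), which overlapped, and the other 7 were at most 0.187.

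Most other genes of the family were also at or near 0 in gSpns1-cKO livers. Of 11 further Mup genes, 8 were tested, and 7 were lower in the edgeR quasi-likelihood test (Benjamini-Hochberg adjusted): Mup8, Mup9, Mup13, Mup14, Mup16, Mup17 and Mup19. In that test 20.5% of all genes were lower. These genes share windows with the members and passed the filter on low counts through their control counts. Their calls are therefore not separate support. Mup17 had 18121, 46939 and 22707 counts in control and 6, 0 and 0 in gSpns1-cKO livers. Mup16 had 27123, 3211 and 8858 in control and 7, 2 and 0 in gSpns1-cKO livers. Together the 11 genes had 71703, 64357 and 49624 counts in control and 32, 2 and 0 in gSpns1-cKO livers. Mup10, Mup16 and Mup19 differed between control livers by more than any member did. Mup19 was 52.2 times as high in the highest as in the lowest control (13169, 960 and 227 counts), and Mup10, at 167, 228 and 5642, was 37.5 times. Mup10 had 4, 0 and 0 counts in gSpns1-cKO livers and did not pass (log2 fold change -10.98, adjusted p = 0.0542 in the edgeR quasi-likelihood test (Benjamini-Hochberg adjusted)), and it passed when control replicate 3 was left out (adjusted p = 0.000279). With library size scaling or the replicate block Mup10 passed too. The calls of Mup13 and Mup19 were lost without any 1 of the gSpns1-cKO libraries, and that of Mup19 also without control replicate 2 (highest adjusted p = 0.110 and 0.215 in the same test). Mup4, whose windows are all its own, had 498, 1 and 0 counts in the controls and 0 in each gSpns1-cKO liver, and Mup5 and Mup6 had at most 18 counts in any library. These 3 were not tested.

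Mup22 is listed in the deposited table under its older name Gm21320 and was matched by its Ensembl identifier. It had 33316, 39804 and 22420 counts in the controls and 605, 0 and 0 in gSpns1-cKO livers. The 605 counts in replicate 1 exceeded those of all 7 near-identical members together in that library, although 0 of its 762 windows were its own. Its log2 fold change was -7.65 (SE 2.55, adjusted p = 0.0785 in the edgeR quasi-likelihood test (Benjamini-Hochberg adjusted)), and it passed without gSpns1-cKO replicate 1 (adjusted p = 1.1e-08). Mup22 also passed in all libraries with DESeq2 or limma-voom. Mup-ps19, the pseudogene that shares 322 of the 829 windows of Mup20, had 16341, 23897 and 14871 counts in control and 2391, 18 and 282 in gSpns1-cKO livers. That was 18.1%, 18.6% and 14.8% of the Mup20 count in control livers and 11.4%, 3.31% and 56.5% in gSpns1-cKO replicates 1, 2 and 3. Replicate 1 was the highest gSpns1-cKO library for both genes. Of 27 listed Mup pseudogenes, 8 were tested and 7 were lower, where 20.5% of all genes tested were lower.

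The genes on either side of the cluster differed in both directions. Of the 5 nearest protein-coding genes on each side, 9 were tested and had a median log2 fold change of 0.00. A call in either direction was made for 7 of these 9, and for 41.8% of all genes tested. In the edgeR quasi-likelihood test (Benjamini-Hochberg adjusted), Snx30 (0.51), Zfp37 (1.87) and Slc31a2 (0.44) were higher, and E130308A19Rik (-0.68), Hsdl2 (-0.53), Slc31a1 (-0.59) and Cdc26 (-0.30) were lower on the log2 scale. Snx30 encodes a sorting nexin, Slc31a1 a copper importer and Cdc26 a subunit of the anaphase-promoting complex. Leaving out 1 library at a time reduced the 7 calls to between 3 and 5, with 3 without control replicate 3. Hsdl2 and Slc31a1 kept their calls each time, but they and E130308A19Rik lost them with library size scaling. The call of Cdc26 was lost whichever library was left out, and its direction turned with library size scaling (0.14).

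Because Mup genes are male-biased in liver, a list of 16 other male-biased genes was set beside them. In 16 of 16 every gSpns1-cKO library was below every control library, and 12 were lower in the edgeR quasi-likelihood test (Benjamini-Hochberg adjusted), with a median log2 fold change of -4.02. Over all genes tested, 26.9% had that order and 20.5% were lower. This list, like the others, was written with earlier results of these data known. The largest changes past the threshold were in Hsd3b5, a steroid dehydrogenase, with 7088, 5249 and 2910 counts in control and 6, 2 and 2 in gSpns1-cKO livers (log2 fold change -10.93), in Elovl3, a fatty acid elongase (-7.29), and in Slco1a1, an organic anion transporter (-7.11). Moxd1, with 35, 491 and 78 counts in control and 0 in each gSpns1-cKO liver, did not pass (adjusted p = 0.102, edgeR), and it passed without control replicate 2 (adjusted p = 0.00145). The smallest changes past the threshold were in Gstp1 (-1.82), Cyp2d9 (-1.85) and Ugt2b38 (-2.20), which encode enzymes of drug and steroid conjugation or oxidation. In 14 of the 16, gSpns1-cKO replicate 1 was the gSpns1-cKO library nearest to the control mean. That was also so in 8 of the 8 members with a count in any gSpns1-cKO library, in 53.7% of all genes called lower and in 42.1% of all genes tested. In Mup1, Mup11, Mup12 and Mup18 replicate 1 held only 1 or 2 counts, under the floor of 3 counts. No order of the gSpns1-cKO libraries is read from those members. Cyp4a12a, a fatty acid hydroxylase with near-identical paralogs, is an example that did not pass, with 7275, 8058 and 4641 counts in control and 770, 20 and 23 in gSpns1-cKO livers (adjusted p = 0.0873 in the edgeR quasi-likelihood test (Benjamini-Hochberg adjusted)), and it passed without gSpns1-cKO replicate 1 (adjusted p = 7.6e-09). Cyp4a12a and Moxd1 also passed with DESeq2 or limma-voom. Without gSpns1-cKO replicate 1, 15 of the 16 genes were lower.

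Female-biased genes moved in the other direction in part. Of 25 listed, 16 were tested, 9 were higher and 1, the steroidogenic Cyp17a1, was lower (log2 fold change -1.43), in the edgeR quasi-likelihood test (Benjamini-Hochberg adjusted). Among all genes tested, 21.3% were higher and 20.5% lower. The median log2 fold change was 2.64, or 2.38 with Sult3a1 at its bound. Cyp2b9, with 5, 4 and 22 counts in control and 143, 8277 and 7057 in gSpns1-cKO livers, and Cyp2a4, with 21, 4 and 10 against 161, 3319 and 3004, had log2 fold changes of 8.47 and 7.05. In both genes gSpns1-cKO replicate 1 was the lowest of its group and still above every control. The smaller rises past the threshold included Abcb1a (2.28) and Trim24 (0.31). The calls of Cyp2b9 and Cyp2a4 held only when gSpns1-cKO replicate 1 was the library left out, and Trim24 only when control replicate 2 was (highest adjusted p = 0.123, 0.106 and 0.188 in the same test). Between 5 and 12 genes were higher when 1 library was left out, with 5 without control replicate 1 or gSpns1-cKO replicate 3 and 12 without gSpns1-cKO replicate 1; leaving out gSpns1-cKO replicate 2 gave 6.

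**Figure D5:**
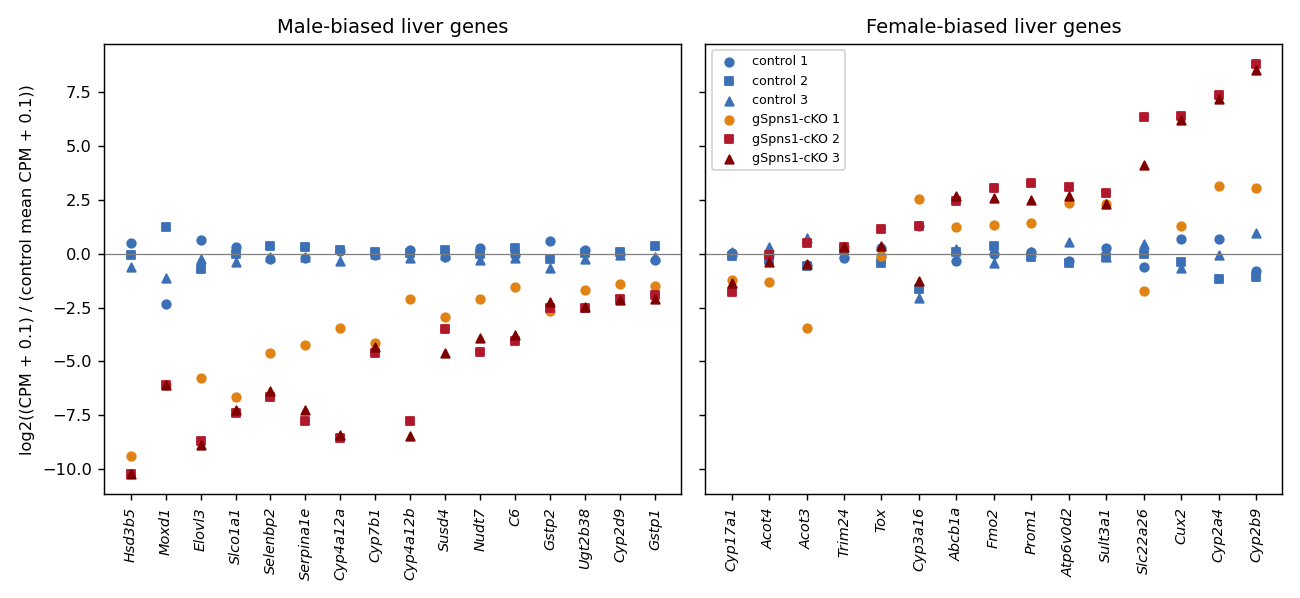
Each point is 1 gene in 1 library, as the log2 ratio of its CPM to the control mean with 0.1 CPM added to both, for the 16 tested male-biased genes (left) and 15 of the 16 tested female-biased genes (right), ordered by log2 fold change. In 14 male-biased genes the orange point, gSpns1-cKO replicate 1, is the gSpns1-cKO library nearest to 0.

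Genes that act on Mup transcription were followed as a list of 14. Of these, 4 were lower and 0 higher in the edgeR quasi-likelihood test (Benjamini-Hochberg adjusted), where 20.5% of all genes were lower. The 4 of 14 were not far above that share, and no result about the list is read from them. Ghr, the growth hormone receptor, had 18043, 14861 and 16304 counts in control and 13779, 10162 and 12429 in gSpns1-cKO livers (log2 fold change -0.88, SE 0.18, adjusted p = 0.00309). Cebpa (-1.41) and Cebpb (-1.25), liver-enriched bZIP factors, and Onecut1 (-1.44), also called HNF6, were the other three. The call of Onecut1 held only when control replicate 3 was the library left out (highest adjusted p = 0.130 in the same test). Stat5b, the mediator of growth hormone pulses, had 1464, 1590 and 1202 counts in control and 2053, 2002 and 2306 in gSpns1-cKO livers, a log2 fold change of 0.15 (SE 0.10) that did not pass (adjusted p = 0.254, edgeR). Stat5a (log2 fold change -0.0048), Jak2 (0.08), Nr3c1 (0.11), Thrb (-0.27), Hnf4a (-0.42), Zhx2 (-0.04) and Bcl6 (-1.03) did not pass either. When 1 library was left out, Thrb passed without gSpns1-cKO replicate 1 (adjusted p = 0.0379) and Hnf4a without control replicate 1 or gSpns1-cKO replicate 2 (lowest adjusted p = 0.0246, edgeR). With library size in place of TMM factors, Ghr and Onecut1 did not pass, and Stat5a, Stat5b, Jak2 and Nr3c1 were higher. Hnf4a was lower with DESeq2. Cux2, a repressor of male-biased genes that is itself female-biased, had 19, 8 and 5 counts in control and 38, 1511 and 1379 in gSpns1-cKO livers. Its log2 fold change of 6.04 did not pass (adjusted p = 0.0557, edgeR). Cux2 passed without gSpns1-cKO replicate 1 (adjusted p = 7.6e-07, edgeR), and in all libraries with DESeq2 or with library size scaling. The library with the lowest Cux2 of the gSpns1-cKO group was the one with the highest Mup3, Mup20 and Mup21, a match over 3 libraries that was not tested.

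Of 6 growth hormone target genes, 2 were lower in the same test and 0 higher, where 20.5% of all genes were lower. With 6 genes, 2 calls are too few to set apart from that share. Igf1, the circulating growth factor, had 17242, 18371 and 14613 counts in control and 13784, 12718 and 12622 in gSpns1-cKO livers (log2 fold change -0.79, SE 0.13). Igfals, which stabilises it in plasma, had a log2 fold change of -1.04 (SE 0.12). Socs2 (0.20), Cish (0.16), Socs1 (0.31) and Socs3 (0.04), the feedback inhibitors, did not pass.

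Of 14 other lipocalin genes listed, 10 were tested, 5 were lower and 0 higher in the edgeR quasi-likelihood test (Benjamini-Hochberg adjusted), with a median log2 fold change of -1.17. Among all genes tested, 20.5% were lower. Obp2a, an odorant-binding lipocalin, had the largest change, with 73, 91 and 129 counts in control and 6, 0 and 0 in gSpns1-cKO livers (log2 fold change -5.96). Only 3 were lower without control replicate 2 or gSpns1-cKO replicate 3, and with library size or upper-quartile scaling. C8g, a complement subunit (-2.12), Orm1, an acute-phase protein (-1.27), Ambp (-1.05) and Apom (-0.52) were the others. The groups overlapped in Orm1, with 870, 1932 and 2706 CPM in control and 893, 607 and 778 CPM in gSpns1-cKO livers. The calls of Apom and Orm1 were lost when some single libraries were left out, control replicate 2 and gSpns1-cKO replicate 3 for both and, for Orm1, also control replicate 3 and gSpns1-cKO replicates 1 and 2 (highest adjusted p = 0.0717 and 0.143 in the same test). Rbp4, the retinol carrier, had 137084, 147636 and 123703 counts in control and 83855, 159106 and 135852 in gSpns1-cKO livers and did not pass (log2 fold change -0.55, adjusted p = 0.0558, edgeR), and it passed without gSpns1-cKO replicate 2 (adjusted p = 0.0192). Rbp4 was also lower in all libraries with DESeq2 or limma-voom. Orm3 went the other way, with 42, 80 and 180 counts in control and 375, 356 and 503 in gSpns1-cKO livers. It did not pass (log2 fold change 1.55, adjusted p = 0.0721, edgeR). Orm3 was higher with DESeq2, limma-voom, library size scaling or the replicate block.

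Markers of cell types moved with the groups, and their part in the Mup result was not tested. Hepatocyte markers (9 in the table) were lower in 6 and higher in 0, but with library size alone 2 were lower and 1, Cps1, was higher. Cps1 was also higher with DESeq2 and with upper-quartile scaling. With TMM factors their summed level was 106055 to 117953 CPM in control and 62934 to 72374 CPM in gSpns1-cKO livers. Alb had 2175970, 1960906 and 1694817 counts in control and 1346605, 1654625 and 1772838 in gSpns1-cKO livers, and was itself lower (log2 fold change -0.73, adjusted p = 0.0101, edgeR), a call lost with library size scaling. Macrophage markers were higher in 8 of 8 (108 to 165 against 366 to 536 CPM in sum), cholangiocyte markers in 5 of 5 (44.2 to 62.9 against 170 to 279), stellate markers in 6 of 6 (194 to 223 against 476 to 571) and endothelial markers in 4 of 6 (142 to 156 against 198 to 238). Lymphocyte markers were higher in 1 of 6 (2.25 to 3.45 against 4.25 to 4.98), and erythroid markers were higher in 2 and lower in 1 of 4 tested (128 to 149 against 76.4 to 172). Late fetal and early postnatal genes were higher in 3 of 6 tested, H19 (3.18), Plagl1 (2.26) and Mest (1.12 on the log2 scale). These 3 genes were low, at most 1.51, 4.35 and 2.03 CPM in any library. Afp did not pass (log2 fold change 0.49, adjusted p = 0.299, edgeR), but was higher with library size scaling. The call of Mest was lost without control replicate 2, gSpns1-cKO replicate 2 or gSpns1-cKO replicate 3 (highest adjusted p = 0.0705). These calls were made in the edgeR quasi-likelihood test (Benjamini-Hochberg adjusted), where 20.5% of all genes were lower and 21.3% higher. The 1 of 6 lymphocyte markers was near that share.

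The genes whose level tracked the summed Mup genes most closely were Cyp4f14 (Pearson r = 0.999), Serpina1e (0.999), Shmt2 (0.998), Scp2 (0.997) and Serpina12 (0.997), over log2 CPM in the 6 libraries. The 6 libraries form 2 groups, and 722 of the 7993 genes averaging 10 CPM or more had r above 0.95, so these values describe the pattern only. Serpina1e, a male-biased protease inhibitor with close paralogs, had 239245, 377649 and 225145 counts in control and 18946, 1772 and 2556 in gSpns1-cKO livers. Serpina12, the adipokine vaspin, had 4397, 4554 and 2668 in control and 545, 50 and 98 in gSpns1-cKO livers. In both genes, as in Mup3 and Mup20, replicate 1 was the highest gSpns1-cKO library.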

How the data were processed

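RNA from 6 livers was sequenced after poly-A selection, 1 library per mouse. Per the labels, the authors trimmed reads with fastp, aligned them to mm10 with HISAT2 2.0.5 and counted them per gene with featureCounts 1.5.0-p3. Strand and multi-mapping settings are not given in the sources used here. The deposited counts are raw whole numbers. The authors also deposited FPKM values, a signal per group (mean normalized counts) and the log2 fold changes and p-values of their own comparison, none of which was used here, and gene lengths, which were used for levels per kilobase. Groups came from the labels.

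The 15449 genes that passed filterByExpr were fitted with edgeR 4.0.16 (R 4.3.3; TMM factors 0.834 to 0.873 in control and 1.16 to 1.18 in gSpns1-cKO libraries, robust quasi-likelihood test), adjusted by Benjamini-Hochberg at 0.05. CPM uses TMM-scaled library sizes. The floor is 3 counts per library, or 0.0763 to 0.119 CPM. Alternatives were DESeq2 1.42.0, limma-voom (limma 3.58.1), other scalings and filters, a replicate block and leaving out each library. Replicates of a group were not duplicates of each other (chi-square per gene 38.8 to 114). Windows and coding sequences came from GENCODE M21, promoters from RefSeq GRCm38.p6. Coordinates of 98.3% of 54409 genes found in GENCODE M21 were the same in the table.

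The members and gene lists were chosen with earlier results of these data known. Genes named outside the 10 members are Spns1, other Mup genes with 10 or more counts in a library, all regulators and growth hormone targets, the genes with the 3 largest and 3 smallest log2 fold changes past the threshold in the other lists (cell type lists are given as counts and sums), neighbours of the cluster past the threshold, and the 5 genes most correlated with the summed Mup genes. Cyp4a12a, Moxd1, Rbp4, Orm3, Afp, Cps1 and Alb were named after their values were seen. A few genes of these lists are not reported here by name, but remain in the counts and medians.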

Additional observations from a re-analysis of the deposited data

How the results depend on the processing

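The log2 fold changes of the 10 members were negative in 133 of 133 alternatives. The number of members called lower was 7 to 9 when 1 library was left out and 7 at an adjusted p under 0.01, 10 with DESeq2 or limma-voom, 8 with all genes that had a count, and 2 where at least 10 counts in every library were required, since this filter leaves 3 members. All genes called lower numbered 3166 and all genes called higher 3286. With library size alone they were 970 and 7289, where the median log2 fold change over genes was 0.457 in place of 0.014, and with upper-quartile scaling it was 0.143 (2240 lower, 4111 higher). At an adjusted p under 0.01 they were 1907 and 1983, and without 1 library 2125 to 3216 lower and 2365 to 3213 higher. Female-biased genes called higher were 9, or 5 under the stricter count filter and 5 at an adjusted p under 0.01, with 5 to 12 when 1 library was left out. Male-biased genes called lower were 10 to 16 over all alternatives. Mup regulators called lower were 4, or 2 with library size alone. Hepatocyte markers called lower were 6, or 2 with library size alone, 4 with upper-quartile scaling and 3 at an adjusted p under 0.01. With library size alone the log2 fold change reversed for Stat5a (0.44), Ddx3y (0.39), Clec4g (0.34) and Cdc26 (0.14). The mean share of counts on Mup genes in control livers was 2.11%, or 1.11% for Mup3, Mup20 and Mup21 only and 0.812% for the other 7 members only. Adding Mup22 was chosen after seeing the data and gave 2.21%. Over single genes, members included, and part of the lists, 2021 alternatives counted as unchanged. A call was gained in 76 and lost in 153, values moved in 39 and reversed in 4. Unchanged meant the same side of the threshold for a gene, or a list count close to the main one. For a member it meant a log2 fold change within the SD between libraries. A direction that turned with no call in either fit also counted as unchanged. The causes of these differences were not tested.

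The replicate numbers did not pair the livers, with correlations of same-numbered deviations of 0.039, 0.034 and -0.028. With the replicate block, 3016 genes were lower and 3084 higher. Then 9 members and 5 Mup regulators were lower, the added one being Bcl6 (Bcl6 log2 fold change -0.96, adjusted p = 0.00348 in edgeR's test with the block). With 3 livers per group, a gene at 0 in all gSpns1-cKO livers is bounded only by the floor of 3 counts.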
